A study of Mus musculus with 12 samples.

Results

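The imprinted genes Dlk1, Mest, Cdkn1c and Ndn, which stood high in late embryoid bodies, were followed over the 4 sampled days of the series. They were taken by their gene symbols, with 1 probe each, from the 9212 genes measured. They had been selected on their log ratios over these same 4 days, so those ratios are given below as a description and without a test. The groups were embryoid bodies (EB), aggregates in which embryonic stem (ES) cells differentiate without a directed signal, dissociated and plated in medium with fetal bovine serum for 4, 8, 15 or 21 days. Each was set against undifferentiated R1 mouse ES cells kept on gelatin with leukemia inhibitory factor. Each day had 3 arrays, and each array held EB RNA in 1 channel and ES RNA in the other. Nothing in the labels tells if the 3 arrays of 1 day were separate cultures, and p-values and standard deviations therefore measure the spread between arrays, which may be technical. An EB culture mixes many cell types, and in such bulk RNA fewer cells of a type and less RNA per cell cannot be told apart.

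Imprinted genes are transcribed mainly from the allele inherited from 1 parent, and DNA methylation at CpG sites laid down in the germ line marks which allele that is. Many act on fetal growth. Dlk1, Mest and Ndn are read from the paternal allele and Cdkn1c from the maternal one. The arrays measured total RNA of a gene and did not tell the alleles apart.

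Values are the log ratios that the authors deposited, read as log2, with a positive value read as higher in EB. That direction is likely and not settled. The label protocols give Cy5 to EB RNA, whereas the titles and dye fields put ES first and give Cy5 to ES RNA, and the study's titles are therefore opposed here. ES cell markers decided the reading: at day 21, 12 of 14 were negative with an adjusted p under 0.05 in limma's test (termed called below) and 0 were positive, so they cannot count in its favour. With the opposite reading, each higher becomes a lower and each lower a higher. The arrays fell into 2 sets, told apart by 96 features without a gene that averaged -0.31 to 0.07 on 7 arrays and -1.46 to -0.79 on 5. The second set held array 3 of each day and array 2 of day 8. Arrays of 1 day correlated across features by 0.0059 to 0.20 at day 4, 0.35 to 0.62 at day 8, 0.39 to 0.82 at day 15 and 0.56 to 0.77 at day 21.

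RefSeq's promoter table held an entry for 3 of the 4 genes. The DNA around their transcription starts is shown because CpG sites can carry methylation. The windows are not given as the sites of the germ line mark, which may lie elsewhere. Each line runs 5′ to 3′ over 280 bases, 250 before the start and 30 from it on, all on the plus strand, from RefSeq's GRCm38.p6, with CpG sites in capitals. The windows are chr12:109452573-109452852 for Dlk1, chr6:30737800-30738079 for Mest and chr7:62348027-62348306 for Ndn. The start is that of the promoter table. RefSeq's gene entry for Dlk1 begins upstream of it, at 109452485, so the Dlk1 window lies within the annotated gene.
Dlk1: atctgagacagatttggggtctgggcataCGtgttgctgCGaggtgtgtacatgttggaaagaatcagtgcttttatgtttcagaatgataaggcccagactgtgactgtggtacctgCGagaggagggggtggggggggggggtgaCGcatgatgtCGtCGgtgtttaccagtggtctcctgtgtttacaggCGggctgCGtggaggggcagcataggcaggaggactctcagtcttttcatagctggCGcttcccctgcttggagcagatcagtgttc
Mest: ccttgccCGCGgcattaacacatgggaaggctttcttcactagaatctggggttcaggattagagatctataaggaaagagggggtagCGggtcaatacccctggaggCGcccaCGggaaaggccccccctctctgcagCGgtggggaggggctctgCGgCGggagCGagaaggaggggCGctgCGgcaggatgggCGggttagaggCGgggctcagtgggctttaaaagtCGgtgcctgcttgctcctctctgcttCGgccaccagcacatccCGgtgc
Ndn: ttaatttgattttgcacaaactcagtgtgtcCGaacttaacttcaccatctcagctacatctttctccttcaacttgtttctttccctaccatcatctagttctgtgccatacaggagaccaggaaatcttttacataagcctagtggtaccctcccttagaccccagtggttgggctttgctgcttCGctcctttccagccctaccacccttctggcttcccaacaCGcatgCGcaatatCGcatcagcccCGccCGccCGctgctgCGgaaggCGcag
The Mest window held 16 CpG sites, the Ndn window 10 and the Dlk1 window 9, against a median of 6 over 32851 such windows. Of all windows 69.7%, 58.5% and 56.1% held fewer sites than those of Mest, Ndn and Dlk1, so none of the 3 stood out. Mest had a further start upstream, with its window at chr6:30733256-30733535 and 7 CpG sites. That window, and not the one shown, holds the position where RefSeq's gene entry for Mest begins, 30733506. The letters GGGCGG, read on both strands and known as a GC box, were in the Mest and Ndn windows and not in that of Dlk1; 34.7% of all windows held them. TATAAA, on either strand, was in none of the 3 windows and in 13.1% of all. CCAAT was likewise in none, and in 36.1% of all. Methylation was not measured in this series.

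Dlk1 encodes a membrane protein with EGF-like repeats, related to the ligands of Notch and known for holding back the formation of fat cells. Its log2 ratio was -0.14, 0.16 and -0.14 on the 3 arrays of day 4 and 0.01, 0.02 and 0.48 on those of day 8. At day 15 it was 1.70, 1.68 and 1.54, and at day 21 2.14, 1.74 and 2.03. The early arrays lay around 0 apart from array 3 of day 8, and all 6 late arrays stood above all 6 early ones, with 1.05 between the lowest late and the highest early value. The means were 1.64 ± 0.09 at day 15 and 1.97 ± 0.21 at day 21 (SD, n = 3 arrays each), a 3.12-fold and a 3.92-fold ratio of EB over ES if the base is 2. Dlk1 ranked 21 of 10689 features by mean ratio at day 15 and 19 at day 21, and was the highest of the 51 imprinted genes measured at day 21. It was the 1 gene of the 4 whose day 21 arrays all lay above its day 15 arrays, by 0.33 ± 0.13 in the mean (SE of the difference); 5.13% of all features had such an order.

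Mest encodes a protein of the hydrolase fold that is strongly transcribed in embryonic mesoderm. Its log2 ratio was 0.48, 0.27 and 0.42 at day 4, 0.09, 0.14 and 0.39 at day 8, 1.81, 1.52 and 1.24 at day 15, and 2.01, 1.77 and 1.74 at day 21. It differed from Dlk1 at the start, since all 3 day 4 arrays were positive and its mean of 0.39 ± 0.11 ranked 138 of 10689 features. The day 8 mean was 0.21 ± 0.16, day 8 minus day 4 was -0.18 ± 0.11 (SE of the difference), and the arrays of both days overlapped. The late means were 1.52 ± 0.28 at day 15 and 1.84 ± 0.14 at day 21, a 2.88-fold and a 3.58-fold ratio. The day 21 and day 15 arrays overlapped, and every late array stood above every early one by at least 0.76.

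Cdkn1c encodes p57, an inhibitor of cyclin-dependent kinases that stops the cell cycle in differentiating embryonic tissues. It had the smallest late means of the 4. Its log2 ratio was 0.24, 0.16 and 0.04 at day 4, -0.02, 0.23 and 0.65 at day 8, 0.68, 1.00 and 0.95 at day 15, and 0.88, 0.80 and 0.69 at day 21. The day 15 mean of 0.88 ± 0.17 and the day 21 mean of 0.79 ± 0.09 correspond to a 1.83-fold and a 1.73-fold ratio, with overlapping arrays. Late and early arrays were parted by only 0.02, because array 3 of day 8 at 0.65 nearly reached array 1 of day 15 at 0.68. On that day Dlk1 and Mest too were highest on array 3. On arrays 1 to 3 of day 8 the markers of visceral endoderm and fetal liver had medians of 0.02, 0.46 and 0.83 (14 measured genes). ES cell markers had -0.375, -0.48 and -0.92, and heart muscle markers -0.01, 0.04 and 0.19. Mesenchyme markers had -0.03, -0.10 and -0.13. The part of any of these markers, or of the array as a whole, in the array 3 values was not tested.

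Ndn encodes necdin, a protein of the MAGE family that restrains cell growth and is best known from neurons. Its log2 ratio was -0.10, 0.17 and 0.05 at day 4 and -0.15, -0.26 and -0.22 at day 8, where it was the 1 gene of the 4 below 0 on all 3 arrays. At day 15 it was 1.28, 1.49 and 0.37, and at day 21 1.49, 1.34 and 1.64. The day 21 arrays lay close together, with a mean of 1.49 ± 0.15 or a 2.81-fold ratio. The day 15 mean of 1.05 ± 0.60 averages 2 high arrays and 1 low one: without array 3 it was 1.39. That array was in the second array set, as was array 3 of day 21, on which Ndn had its highest value of all. The part of the array set in these values was not tested.

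**Figure D1:**
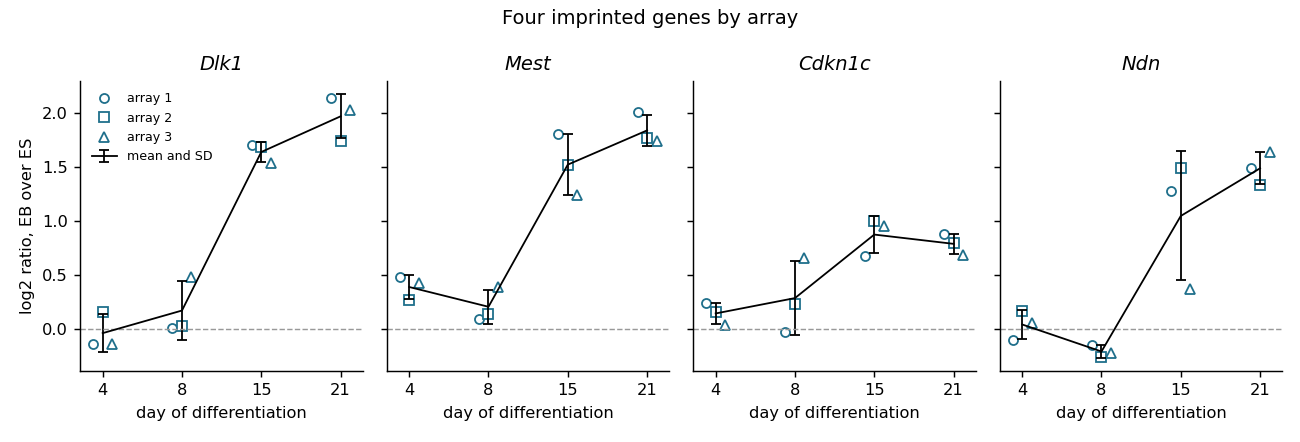
Log2 ratio of EB over ES (vertical axis) for Dlk1, Mest, Cdkn1c and Ndn against the day of differentiation. Open symbols are single arrays, and the line joins the means of 3 arrays with their standard deviations. Within each gene all late values lie above all early ones. Cdkn1c reaches at most 1.00 and Ndn has 1 low array, at 0.37, on day 15.

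In all 4 genes, every array of days 15 and 21 stood above every array of days 4 and 8, an order that 1.45% of all 10689 features showed. The genes were chosen for this pattern, so nothing is read from that share. The step lay between days 8 and 15, where the day 15 arrays of each gene were all above its day 8 arrays, an order found in 8.06% of all features. Day 15 minus day 8 was 1.47 ± 0.16 for Dlk1, 1.32 ± 0.19 for Mest, 1.26 ± 0.35 for Ndn and 0.59 ± 0.22 for Cdkn1c (SE of the difference of means of 3 arrays). Day 21 minus day 15 was smaller, at 0.33 ± 0.13 for Dlk1, 0.32 ± 0.18 for Mest, 0.44 ± 0.36 for Ndn and -0.09 ± 0.11 for Cdkn1c. Day 8 minus day 4 lay between -0.25 for Ndn and 0.21 for Dlk1, and only the Ndn arrays did not overlap, with day 8 below day 4. The dyes were not swapped, and a dye effect of a probe therefore stays in the ratios against ES. It drops out of the differences between days if it was alike on all arrays, and day 21 minus day 4 was 2.01 for Dlk1, 1.45 for Mest, 1.45 for Ndn and 0.65 for Cdkn1c. For comparison, the linked imprinted genes Igf2, a fetal growth factor, and H19, a noncoding RNA, averaged 1.95 ± 0.29 and 1.48 ± 0.35 at day 21 (adjusted p = 1.92e-05 and 0.00231). H19 at 1.31 on array 3 of day 8 overlapped its own late arrays.

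The 5 genes whose values ran most like those of each gene over the 12 arrays were found by Pearson's r, given as a description. It is set largely by the step between early and late days, and every point is a ratio to ES RNA. Dlk1 ran closest to Postn, a matrix protein of mesenchyme (r = 0.987), Col3a1, a fibrillar collagen chain (0.968), Lum, a proteoglycan that binds collagen (0.951), Igfbp4, which binds insulin-like growth factors (0.949), and Itm2a, a membrane protein (0.948). Mest shared Postn (0.982), Col3a1 (0.970) and Itm2a (0.957) with it. Its other near genes were Hsd11b2, an enzyme that inactivates glucocorticoids (0.961), and the collagen chain gene Col5a1 (0.955). Ndn ran closest to Col5a1 (0.982), Col5a2 (0.965), Col1a2 (0.964), Tgfbi, a matrix protein (0.963), and Nrp1, a receptor of semaphorins and VEGF (0.963). Cdkn1c had another set: Epn1, an endocytic adaptor (0.952), Id2, an inhibitor of basic helix-loop-helix factors (0.945), Chst13, a sulfotransferase (0.927), Mpped2, a phosphodiesterase (0.927), and Mdk, a heparin-binding growth factor (0.923). Likeness is not size: at day 21 Epn1 averaged 0.14 ± 0.04 (adjusted p = 0.18) and Id2 1.02 ± 0.22 (adjusted p = 4.66e-04). The Col3a1 value averages 3 probes that differed, at 2.85, 0.84 and 0.20 at day 21.

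Array 3 of day 15, where Ndn was low, was set against the other arrays of that day. Array 3 minus the mean of arrays 1 and 2 was -1.02 for Ndn, and for its 5 nearest genes -1.16 for Col5a1, -1.97 for Col5a2, -1.13 for Col1a2, -0.74 for Tgfbi and -2.24 for Nrp1. Those 5 genes were picked by their correlation with Ndn over arrays that include this one, so a shared low value was favoured by the choice. The difference was -0.42 for Mest, -0.16 for Dlk1 and 0.11 for Cdkn1c. Genes near Dlk1 or Mest were also picked by correlation over arrays that include this one. Some were low there too, with -1.24 for Itm2a, -0.76 for Hsd11b2, -0.59 for Postn and -0.55 for Igfbp4. Col3a1 was at -0.03 and Lum at 0.35. Over 14 mesenchyme markers the median was 0.86, 0.75 and 0.07 on arrays 1 to 3 of day 15, and 1.18, 0.86 and 0.98 at day 21. These markers include Postn, Col3a1, Lum, Col1a2 and Col5a2, picked above by correlation, so the list is not a separate observation. Other lists were nearer 0 on array 3 too. On arrays 1 to 3 of day 15 the median was -1.19, -1.3 and -0.475 over ES cell markers. It was 0.60, 0.78 and 0.14 over markers of visceral endoderm and fetal liver. Heart muscle markers had 0.27, 0.63 and 0.25, and trophoblast markers, highest on array 3, 0.12, 0.17 and 0.24. Without array 3, 1554 features were called at day 15, against 1129 with it. The part of these markers, or of the array as a whole, in the Ndn value was not tested. The mesenchyme list had 6 members higher and 1 lower at day 15, and 9 higher and 1 lower at day 21 (median 0.95, against 0.0031 over all features). The lower one, Thy1 at -0.59 ± 0.45, lost its call without array 1 (-0.34, adjusted p = 0.346) or array 2 (-0.67, adjusted p = 0.114). At day 4 it had 0 members called and at day 8 2 higher. The shares over all features were 1.23% higher and 1.06% lower at day 8, 5.66% higher and 4.9% lower at day 15, and 8.78% higher and 9.93% lower at day 21.

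**Figure D2:**
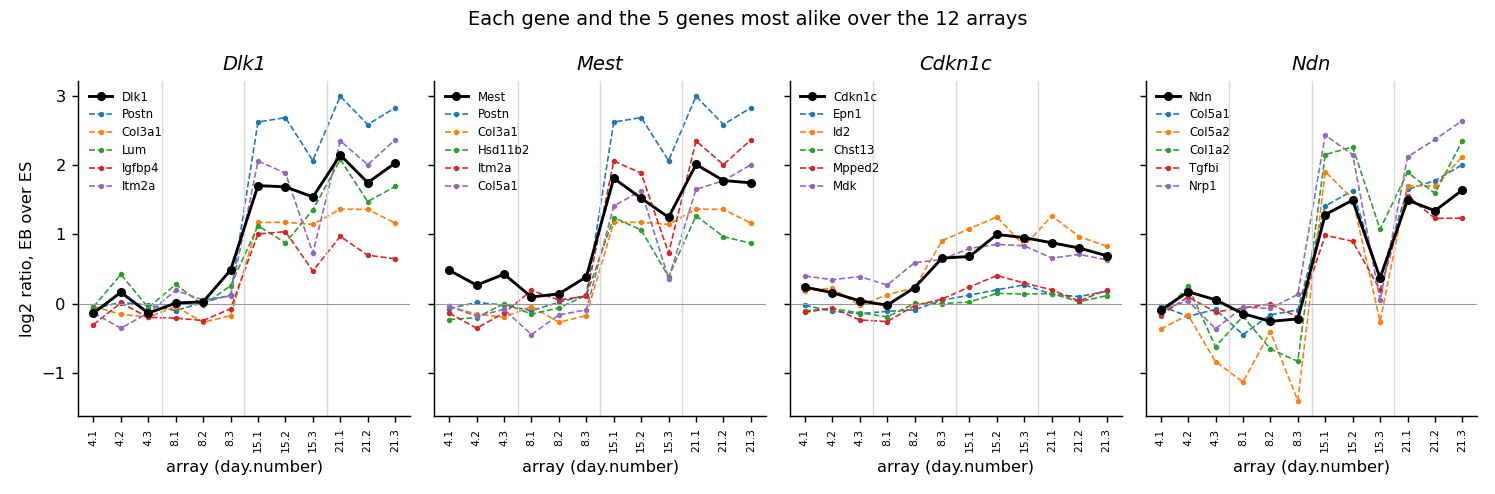
Log2 ratio of EB over ES on each of the 12 arrays, labelled by day and array number, for each of the 4 genes (black, solid) and the 5 genes that correlate best with it (coloured, dashed). Array 3 of day 15 is low for Ndn, at 0.37, and for the 5 genes picked by correlation with it over these same arrays, while Cdkn1c is at 0.95.

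Imprinted genes lie in clusters, and the measured neighbours of the 4 genes had ratios nearer 0. The 4 genes were chosen on their ratios and the neighbours were not, so nothing is read from that contrast. Of 24 other measured genes in the 4 loci, at day 21 1 was higher and 2 lower, within -0.72 to 0.55, with a median of -0.04. These counts are 4.17% and 8.33%, beside 8.78% and 9.93% of all features. In the Dlk1-Dio3 locus Meg3, a maternally expressed RNA 3 places from Dlk1 in RefSeq's gene order, was 0.51, 0.27 and 0.11 at day 21 (0.30 ± 0.20, adjusted p = 0.242), and Dio3, a deiodinase, 0.14 ± 0.21 (adjusted p = 0.261). Neither was called on any day. Wars, a tRNA synthetase at the flank, averaged -0.10 ± 0.10. Beside Mest, Copg2, a coat protein subunit of vesicles, averaged -0.24 ± 0.31 at day 21 (adjusted p = 0.131), and the carboxypeptidases Cpa1 and Cpa4 -0.13 ± 0.37 and -0.16 ± 0.16.

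The Kcnq1ot1 locus around Cdkn1c had 12 other measured genes. Cd81, a tetraspanin, was higher at day 21 (0.55 ± 0.02, adjusted p = 0.00476), with 0.55, 0.54 and 0.58 on the 3 arrays. Slc22a18, a transporter, was higher at day 15 (0.47 ± 0.19, adjusted p = 0.00895) and 0.16 ± 0.22 at day 21 (adjusted p = 0.261). Cars, a tRNA synthetase at the edge of the locus, was lower at days 8 (-0.34 ± 0.02, adjusted p = 0.0369), 15 (-0.47 ± 0.08, adjusted p = 0.0023) and 21 (-0.50 ± 0.10, adjusted p = 8.14e-04). Nap1l4, a histone chaperone, was -0.17, -0.33 and -1.65 at day 21 (adjusted p = 0.0452), and without array 3 -0.25 (adjusted p = 0.328); its call was also lost without array 2 (-0.91, adjusted p = 0.0673). Phlda2, which limits placental growth and is read like Cdkn1c from the maternal allele, was 0.12 ± 0.05 (adjusted p = 0.475). Kcnq1, a potassium channel, was 0.12 ± 0.06 (adjusted p = 0.313), and Ascl2, a trophoblast transcription factor, -0.05 ± 0.08 (adjusted p = 0.834). Osbpl5 (0.14), Tssc4 (0.02), Tnfrsf22 (-0.03), Tnfrsf23 (-0.20) and Trpm5 (-0.27) were not called at day 21 either.

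Around Ndn, 6 other genes of the Ndn-Snrpn locus were measured and none was called on any day. Magel2, the MAGE gene next to Ndn and likewise paternally expressed, was -0.09, -0.09 and -0.07 at day 21 (adjusted p = 0.46). Mkrn3, a zinc finger protein, was 1.26, -0.05 and 0.51 at day 15 and 0.12, -0.94 and 0.01 at day 21 (adjusted p = 0.112 and 0.42), so its arrays overlapped between days. Peg12 averaged 0.18 ± 0.12, the splicing protein gene Snrpn 0.01 ± 0.06, Snurf -0.42 ± 0.13 (adjusted p = 0.0725) and the ubiquitin ligase gene Ube3a 0.13 ± 0.12 at day 21. At an unadjusted p under 0.05 in limma, 6 of the 24 genes of the 4 loci passed at day 21.

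**Figure D3:**
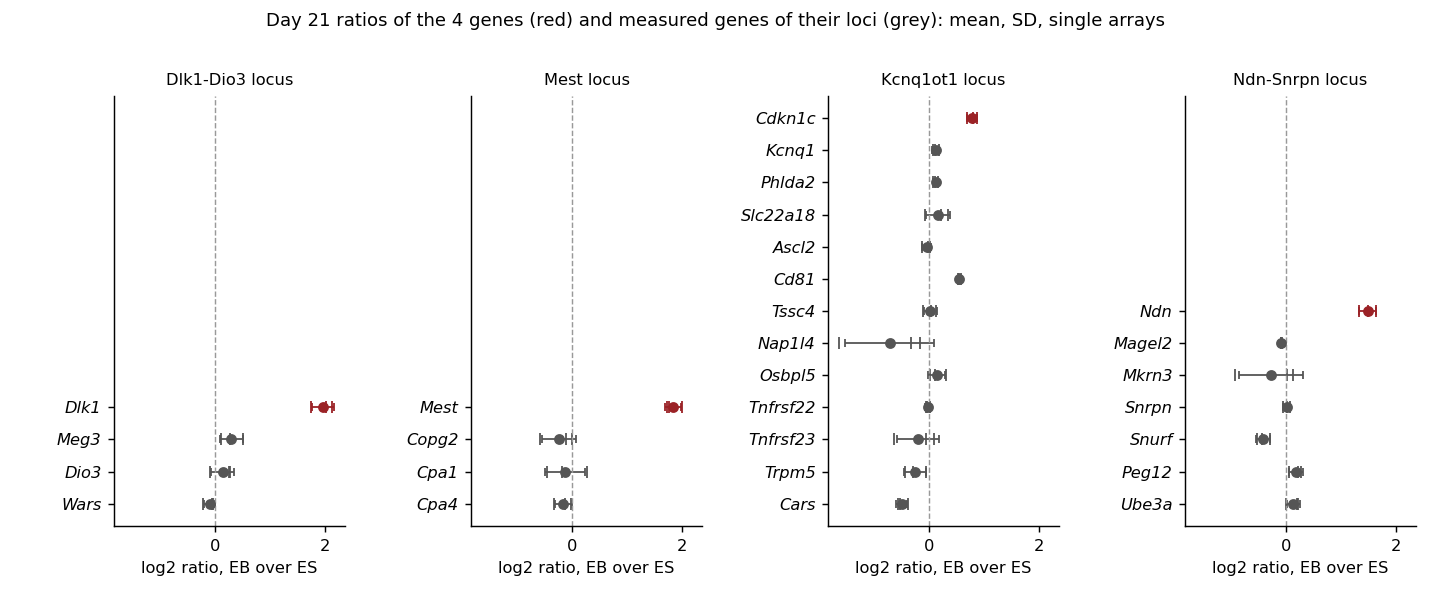
Day 21 log2 ratio of EB over ES for the 4 genes (red) and the other measured genes of their loci (grey). Points are means of 3 arrays, bars standard deviations and ticks single arrays. Dlk1, Mest, Cdkn1c and Ndn, which were chosen on their ratios, stand between 0.79 and 1.97. The other genes, not chosen so, lie between -0.72 and 0.55.

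Of 47 other measured imprinted genes, 6 were higher and 2 lower at day 15, and 8 higher and 2 lower at day 21. The 8 calls of day 15 became 3 without array 1 of that day and 2 without array 2. The full counts are 12.8% and 17.0% higher, beside 5.66% and 8.78% of all features, and 4.26% lower on both days, beside 4.9% and 9.93%. None was called at day 4 or day 8 with limma, where 6 and 11 had an unadjusted p under 0.05 and 0% and 2.28% of all features were called. After Igf2 and H19 came Dcn, a small proteoglycan of matrix, at 1.39 ± 0.28 (adjusted p = 0.00147), and Nnat, a membrane protein of developing brain, at 1.06 ± 0.09 (adjusted p = 1.22e-05). Igf2r, which removes Igf2 by taking it to lysosomes, was 1.05, 0.81 and 0.20 at day 21 (adjusted p = 0.00937), and the call was lost without array 1 (0.50, adjusted p = 0.108) or array 2 (0.62, adjusted p = 0.0783). Casd1, Gnas and Cd81 were the other higher ones. Commd1, a regulator of copper handling, was lower (-0.46 ± 0.17, adjusted p = 0.0073), and the call was lost without array 1 (-0.37, adjusted p = 0.0832). The other lower one was Nap1l4.

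The expressed allele was taken from lists and not measured, so it is not known if these genes were read from 1 allele in these cells. By that listed allele, 2 of 16 other paternally and 6 of 31 other maternally expressed genes were higher at day 21, and 0 and 2 lower. The higher shares are 12.5% and 19.35% and the lower ones 0% and 6.45%, beside 8.78% and 9.93% of all features. The medians of the other imprinted genes were 0.11 at day 15 and 0.12 at day 21, against 0.0074 and 0.0031 over all features. Plagl1 is a zinc finger factor described in mice as a hub of a network that holds all 4 genes, and itself stood at 0.23 at day 21 without a call. Of 13 other measured members of that network 5 were higher (38.5%) and 0 lower at day 21, with a median of 0.23. The higher ones were Igf2, H19, Dcn, Igf2r and Gnas. Within EB, 6 of the 47 genes were higher at day 21 than at day 4 and 0 lower, against 2.62% and 3.22% of all features, 5.84% in either direction. They were Igf2 by 2.0, Dcn by 1.41, Igf2r by 1.06, Nnat by 0.89, Cd81 by 0.69 and Gnas by 0.47. The 6 calls became 2 without array 1 of day 4 or without array 1 of day 21. For day 15 minus day 8, 2 of 47 were called, Igf2 (1.86) and Nnat (0.81), against 0.131% of all features higher and 0.0468% lower. The 2 calls became 1 without array 1 or array 2 of day 8, and 0 without array 1 of day 15. Between days 21 and 15 limma called 0 of 47, with 3 at an unadjusted p under 0.05 and 0.00936% of all features called.

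**Figure D4:**
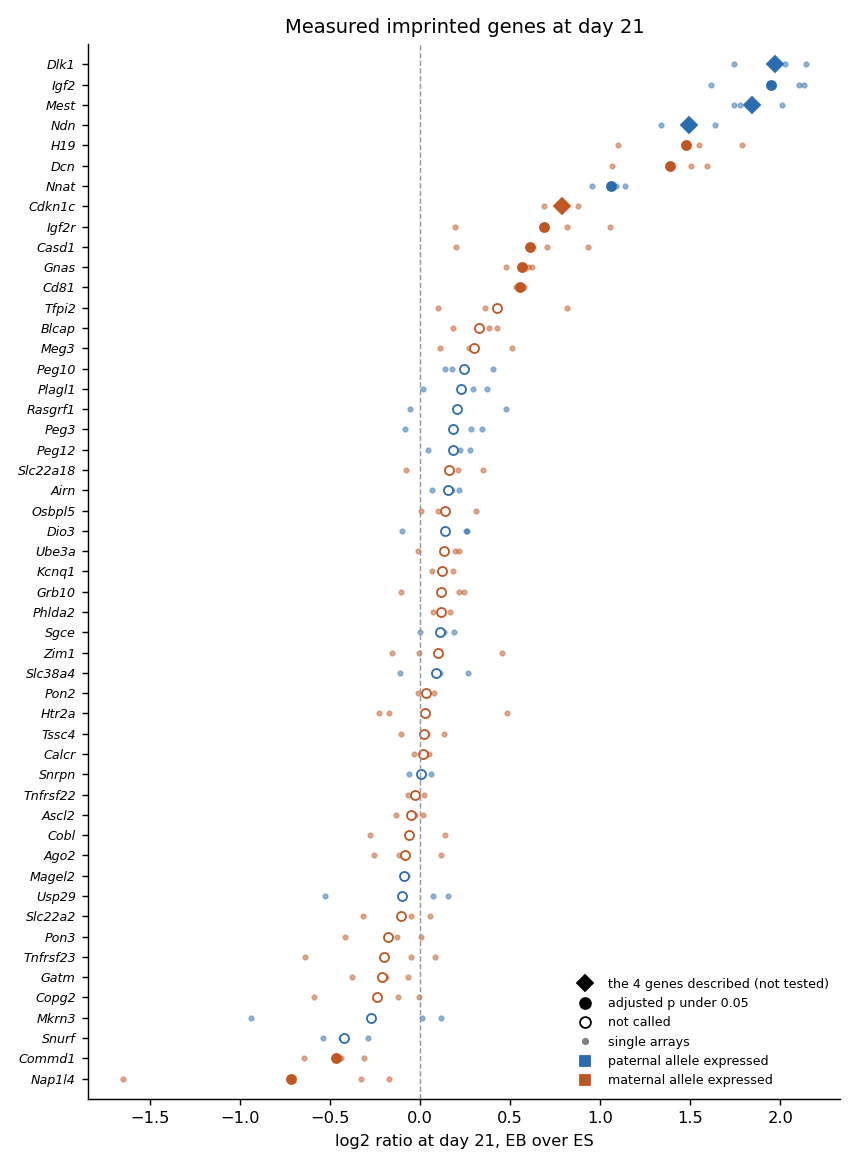
Day 21 log2 ratio of EB over ES for the 51 measured imprinted genes, from the highest mean at the top. Diamonds are the 4 genes described, filled circles other genes with an adjusted p under 0.05, open circles genes not called and small dots single arrays. Colour gives the expressed allele as listed, which was not measured here. Most means lie near 0, and Dlk1, Igf2, Mest, Ndn and H19 lead.

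The partners of each gene were taken from lists. Over all features 5.66% were higher and 4.9% lower at day 15, and 8.78% higher and 9.93% lower at day 21. The counts of each list below stand beside these shares. Dlk1 is a relative of Notch ligands. Of 25 other measured Notch pathway genes 1 was higher at day 21, the target Hes1 (0.32 ± 0.17, adjusted p = 0.0272), and 2 lower, Dtx1 (-0.46 ± 0.24, adjusted p = 0.0167) and the protease gene Adam17 (-0.32 ± 0.13, adjusted p = 0.0182). These counts are 4.0% and 8.0%, both under the shares over all features. None was called at days 4, 8 or 15, where 3, 4 and 7 had an unadjusted p under 0.05, and the day 21 median was 0.05. Without array 1 of day 21 none of these 3 calls held (Hes1 0.22, Dtx1 -0.32 and Adam17 -0.25, with adjusted p of 0.22, 0.167 and 0.147); Hes1 also lost its call without array 2 (0.38, adjusted p = 0.0642) and Adam17 without array 3 (-0.31, adjusted p = 0.0582). Of 16 genes of fat cell formation 2 were higher at day 21, the fatty acid carrier Fabp4 (1.38, 1.77 and 0.80; adjusted p = 0.00119) and the lipase Lpl (0.90, 0.87 and 0.14; adjusted p = 0.0103). Lower were Adipoq (-0.44 ± 0.16), Ebf1 (-0.38 ± 0.30) and Fasn (-0.34 ± 0.20). The higher and lower shares of this list were 12.5% and 18.75%. Fabp4 was 0.28, 0.54 and -0.32 at day 15, below its day 21 arrays, whereas Dlk1 stood at 1.54 or more on every day 15 array. None of the 16 was called at days 4, 8 or 15, and 1, 3 and 3 had an unadjusted p under 0.05; the day 21 median was 0.08. The calls of Lpl, Ebf1 and Fasn were lost without array 1 (0.51, -0.39 and -0.24, adjusted p = 0.107, 0.0997 and 0.243). Without array 2 those of Lpl, Ebf1, Fasn and Adipoq were lost (0.52, -0.23, -0.35 and -0.35, adjusted p = 0.1, 0.216, 0.123 and 0.0698), and that of Fabp4 held without any single array.

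Of the other CDK inhibitors, relatives of Cdkn1c, 2 of 7 were higher at day 15, Cdkn1a and Cdkn1b, and 1 at day 21, with a day 21 median of 0.15. These counts are 28.6% and 14.3%, beside 5.66% and 8.78% of all features. Cdkn1a, the p21 inhibitor induced by p53, was 1.14, 1.00 and 0.58 at day 15 (adjusted p = 6.53e-04) and 0.51, 0.63 and 0.96 at day 21 (adjusted p = 0.00162). Of 26 cyclins, CDKs and pocket protein genes 2 were higher (7.69%) and 7 lower (26.9%) at day 21, with a median of -0.0068. Ccnd2, a D-type cyclin, was higher by 1.79 ± 0.11 (adjusted p = 1.81e-05). Ccne1, a cyclin of the entry into S phase, was lower (-1.0 ± 0.12, adjusted p = 2.02e-04), as were Cdk6 (-0.50 ± 0.16, adjusted p = 0.0253) and E2f4 (-0.47 ± 0.26, adjusted p = 0.0103). The call of Cdk6 was lost without array 1 (-0.46, adjusted p = 0.139) or array 2 (-0.44, adjusted p = 0.145), and that of E2f4 without array 3 (-0.32, adjusted p = 0.0793).

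Among MAGE family genes and necdin partners 3 of 12 were higher and 2 lower at day 15, and 4 higher and 2 lower at day 21 (median 0.10). These counts are 25.0% and 16.7% at day 15, and 33.3% and 16.7% at day 21. The relatives Maged1 and Maged2 averaged 0.88 ± 0.09 and 0.79 ± 0.13 at day 21 (adjusted p = 5.92e-04 and 6.63e-04). At day 15 Maged1 was 1.33, 1.14 and 0.48 and Maged2 1.26, 1.15 and 0.55, again with array 3 lowest as for Ndn. Magee1 was 0.44 ± 0.34 at day 21 (adjusted p = 0.0128). Sirt1, a deacetylase that necdin binds, was lower (-0.42 ± 0.08, adjusted p = 0.0276). Magee1 lost its call without array 1 (0.37, adjusted p = 0.114) or array 2 (0.32, adjusted p = 0.129), and Sirt1 without each array in turn (-0.46 to -0.38, adjusted p = 0.0872 to 0.142). Of 13 neuron markers 0 were higher and 1 was lower (7.69%) at day 21, Stmn2 (-1.77 ± 0.13, adjusted p = 2.85e-05). The list's median was 0.11, and 3 had an unadjusted p under 0.05 in limma. At day 15 Stmn2 was lower and 1 marker, Dcx, higher.

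Of 13 measured genes of imprint maintenance and DNA methylation 0 were higher at day 21 and 8 lower (61.5%, median -0.49): Dppa3, Dnmt3l, Hells, Dnmt3b, Eed, Ezh2, Trim28 and Uhrf1. Dppa3, which shields maternal methylation in the zygote, was lower (-1.59 ± 0.44, adjusted p = 0.00109) and is also an ES cell marker. Hells, a chromatin remodeller, was lower (-1.09 ± 0.15, adjusted p = 4.27e-05). Dnmt3l, a cofactor of the de novo methyltransferases, was -2.15, -1.62 and -0.08 (adjusted p = 0.0252), with array 3 apart, and its call was lost without array 1 (-0.85, adjusted p = 0.223) or array 2 (-1.12, adjusted p = 0.153). Of 17 genes of the insulin-like growth factor axis 7 were higher (41.2%) and 0 lower at day 21 (median 0.19). Igfbp1 averaged 2.36 ± 0.42 (adjusted p = 7.80e-05) and Igfbp3 1.18 ± 0.14 (adjusted p = 0.00213).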

How the data were processed

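Total RNA of EB and ES cells was made into labelled cRNA and hybridised together on 12 arrays with 2 channels, per the labels' protocols. The deposited values are normalized log ratios, 1 per feature and array, taken as log2; the base, the scanner, the background correction and the normalization are not given in the sources used here. The table held 11520 features and no missing value, and each array's median lay near 0. GEO's platform annotation gave 1 gene symbol to 10043 features, several to 29 and none to 1448; 10025 symbols were matched to RefSeq (GRCm38.p6) by Entrez ID and 0 changed. Probes of a gene were averaged, leaving 10689 features and 9212 genes; no dim spot was filtered out, because spot signals were not used here.

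limma 3.58.1 (lmFit and eBayes, R 4.3.3) fitted 1 mean per day over the 12 arrays. Each mean was tested against 0, two-sided, with Benjamini-Hochberg adjustment over all 10689 features and a threshold of 0.05, below which a gene is called. Each ratio holds the ES channel of its own array, so the spread between arrays includes that channel. If 1 ES sample served all arrays, the spread between ES cultures is left out. Differences between days came from the same fit. The number of arrays limits the precision.

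Deviations from the day means correlated by -0.14 to 0.39 (median 0.0807, 18 pairs) between arrays with the same replicate number in the titles, and by -0.32 to 0.19 (median -0.034, 36 pairs) between other arrays. Number and array set overlap, and pairs within a set had a median of 0.0759, against -0.0753 across sets. All 3 same-number pairs were over 0.1 only between days 21 and 15 (0.24, 0.15 and 0.39), so the numbers may pair the arrays of those days. Array 2 of day 15 correlated more with array 1 of day 21 (0.18), which is in the same set. A pairing by number was therefore not settled. The main fit and the standard errors of differences treat the arrays as unpaired. The members and gene lists were chosen with earlier results of these data known. Named genes are, per list, up to 3 higher and 3 lower with the largest day 21 means among called genes of 1 sign on all arrays, all genes of the 4 loci, and the 5 genes most correlated with each member. Plagl1, Cdkn1b, Dcx and genes listed without a value were named after their values were seen. Alternatives were quantile normalization, scaling to 1 median absolute value, a replicate block, an array set term, the median of probes, array weights, each day alone, each array left out and, added after seeing the data, the first array set only.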

Additional observations from a re-analysis of the deposited data

Results flagged for a closer look

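Ndn was negative on all 3 day 8 arrays and positive on all 3 arrays of days 15 and 21. Its mean stood higher than at day 8 by 1.26 at day 15 and by 1.70 at day 21, and the difference was not tested, because the gene was picked for this pattern. Other imprinted genes also had opposite signs on all arrays of a pair of days. The comparison of signs is itself untested, and the share of all features with such signs is not given here. Against day 8, Nnat differed by 0.81 at day 15 and 1.23 at day 21, Phlda2 by 0.51 at day 15 and 0.51 at day 21, Peg12 by 0.23 at day 15 and 0.34 at day 21, and Osbpl5 by 0.22 at day 21. Against day 4, Igf2r differed by 0.92 at day 15 and 1.06 at day 21, Slc22a18 by 0.46 at day 8 and 0.79 at day 15, and Meg3 by 0.41 at day 21. For some of these pairs of days limma's contrast was run. For day 15 minus day 8 it called Nnat (adjusted p = 0.0149) and not Phlda2 (adjusted p = 0.264) or Peg12 (adjusted p = 0.526). For day 21 minus day 4 it called Igf2r (adjusted p = 0.0156) and not Meg3 (adjusted p = 0.386).

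The limma contrast between days had an adjusted p under 0.05 for these other imprinted genes. Day 21 minus day 4 was 2.0 for Igf2, 1.41 for Dcn, 1.06 for Igf2r, 0.89 for Nnat and 0.69 for Cd81. Gnas was called there as well, with the smaller difference given in the Results. Day 15 minus day 8 was 1.86 for Igf2 and 0.81 for Nnat.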

How the results depend on the processing

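The 4 genes kept positive means at days 15 and 21 under quantile normalization, scaling, the replicate block, the array set term, the median of probes, the first array set and each left-out array; array weights and the day alone were not run for these means. Quantile normalization put Dlk1 at 1.41 at day 15 and 1.53 at day 21, Mest at 0.62 at day 4 and 1.44 at day 21, Cdkn1c at 0.64 and Ndn at 1.15 at day 21. Scaling put Dlk1, Mest, Cdkn1c and Ndn at 1.61, 1.49, 0.63 and 1.22 at day 21. In the first array set only, at day 8 Ndn was -0.15 and Cdkn1c, at 0.29 over all arrays, was -0.02. Early means near 0 changed sign: Cdkn1c at day 8 there, Dlk1 at day 4 there and without array 1 or array 3, and Ndn at day 4 without array 2. Leaving out 1 array, Dlk1 ranged over -0.14 to 0.01 at day 4, 0.02 to 0.25 at day 8, 1.61 to 1.69 at day 15 and 1.89 to 2.09 at day 21. Mest ranged over 0.34 to 0.45, 0.12 to 0.26, 1.38 to 1.66 and 1.76 to 1.89 on the same days. Cdkn1c ranged over 0.10 to 0.20, 0.10 to 0.44, 0.81 to 0.97 and 0.75 to 0.84. Ndn ranged over -0.02 to 0.11, -0.24 to -0.18, 0.83 to 1.39 and 1.42 to 1.57.

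Counts of called features moved more. The 0 features called at day 4 by limma (1081 at an unadjusted p under 0.05) became 137 with quantile normalization, 51 with scaling, 87 with a term for the array set and 94 with array weights. The 244 at day 8 became 518, 580, 454 and 999 under the same settings, 1 with each day fitted alone and 10 in the first array set. The 1129 at day 15 became 3251 with array weights, 259 with the day alone and 1742 in the first array set. The 1999 at day 21 became 1068 with quantile normalization and 969 with scaling. Leaving out 1 array gave 0 to 2, 6 to 380, 235 to 1554 and 753 to 2221 features on the 4 days.

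The 47 other imprinted genes had 0 calls at day 4, against 2 with quantile normalization and 1 with array weights. At day 8 the 0 calls became 2, 3, 1 and 5 with quantile normalization, scaling, the array set term and array weights. At day 15 the 8 became 21 with array weights and 3 with the day alone. The 6 of day 21 minus day 4 became 12 with array weights, and the 2 of day 15 minus day 8 became 1 with quantile normalization, 1 with scaling and 8 with array weights. Leaving out 1 array gave 0 to 2 at day 8, 2 to 11 at day 15, 7 to 11 at day 21, 2 to 7 for day 21 minus day 4 and 0 to 2 for day 15 minus day 8. The cause of these shifts was not tested, and the left-out fits also held fewer arrays.

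Of 58 named calls at day 21, 37 held in every alternative run; without array 1, 2 or 3 of that day 18, 17 and 4 were lost, as were 9 with quantile normalization, 13 with scaling and 15 with the day alone. With the replicate block, 2 of them were lost and 0 gained, and 350, 1243 and 2036 features were called at days 8, 15 and 21. Between days 21 and 15, whose arrays the numbers may pair, 0 of the 47 other imprinted genes were called with and without the block. Background correction and a filter on dim spots could not be tried, since signals were not used here, so the depth of each ratio over background is unknown.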

Other observations

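Of 11 heart muscle markers 6 were higher (54.5%) at day 21 and 0 lower, with a median of 0.57. Over all features 8.78% were higher and 9.93% lower on that day. The atrial myosin light chain genes Myl4 (2.28, 1.25 and 0.35 on the 3 arrays, adjusted p = 0.00884) and Myl7 (1.39, 1.55 and 0.36, adjusted p = 0.0093) and the ventricular one Myl2 (1.59, 1.42 and 0.04, adjusted p = 0.0256) were all lowest on array 3, where Ndn at 1.64 was highest. Their calls were lost without array 1 (0.80, 0.95 and 0.73 for Myl4, Myl7 and Myl2, adjusted p = 0.0988, 0.0897 and 0.209) or array 2 (1.31, 0.88 and 0.81, adjusted p = 0.0539, 0.0985 and 0.177). Of 9 skeletal muscle markers 0 were higher and 2 lower (22.2%), Tnnt1 (-0.83 ± 0.14, adjusted p = 1.07e-04) and Mylpf (-0.82 ± 0.19, adjusted p = 0.00743). The call of Mylpf was lost without array 1 (-0.82, adjusted p = 0.0544) or array 2 (-0.73, adjusted p = 0.071). Of 8 trophoblast markers limma called 0 at day 21, with 3 at an unadjusted p under 0.05. Of 14 markers of visceral endoderm and fetal liver 9 were higher (64.3%) and 0 lower, led by Afp at 3.60 ± 0.44 (adjusted p = 2.04e-04).

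Meg3, which shares its locus with Dlk1, was 0.17, 0.24 and -0.87 on the 3 arrays of day 15, while Dlk1 was 1.70, 1.68 and 1.54 there.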
